A study of Mus musculus with 4 samples.

Results

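RNA from control N31 NPCs on a stiff (12 kPa) matrix was compared with RNA from the same line on a soft (0.5 kPa) matrix, which took 2 of the 4 libraries of the series. N31 NPCs are a mouse neural progenitor line derived through iPSCs, and they carry Dox-inducible Oct4, Klf4, c-Myc and Sox2 transgenes together with a transactivator under the CAG promoter. Both cultures were kept on type I collagen-coated matrix in NPC medium without EGF and bFGF, and the remaining 2 libraries come from N31 NPCs expressing a hairpin RNA against Srf (shSrf) on the same matrices. Whether the control cells carried a control vector is not given in the sources used here. Each condition was represented by 1 library of 1 line, so none of the differences given here could be checked in replicates, and p-values were not computed. Of 21862 gene symbols that each file lists a single time, 7645 were above an FPKM of 10 on both matrices and are called well-expressed genes. FPKM is the number of reads divided by the length of the transcript and by the size of the library.

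Cells read the stiffness of their matrix by pulling on it through integrins, focal adhesions and contractile actin filaments. On a stiff matrix, actin assembly releases the Srf cofactor Mkl1 from actin monomers and keeps Yap and Taz in the nucleus, while growth factor signals reach Srf through its TCF partners at early genes such as Egr1. The nuclear lamina, the collagens and the other matrix proteins that cells secrete are also known to follow stiffness in many tissues.

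The labelled cell type was checked against markers. Of 12 NPC markers, 5 were above 10 FPKM in both control libraries, and Vim, at 1696 on the soft and 1481 on the stiff matrix, made up most of their summed level. Sox1, Fabp7, Hes5 and Olig2, which define neural progenitors of several regions, were listed at 0 in both libraries. Pax6 was at 2.62 and 3.46 and Sox2 at 4.29 and 5.49. Mesenchymal markers were high, with 7 of 8 above 10 in each library and a summed FPKM of 3325 on the soft and 3029 on the stiff matrix. The NPC markers summed to 1865 and 1640, the neuron markers to 59.4 and 62.8, and 4 epithelial markers to 43.3 and 30.5. In a bulk library, fewer cells of a type and less RNA for each cell cannot be told apart. Depth was estimated at 29100000 reads for the soft and 24100000 for the stiff library.

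Most well-expressed genes were at nearly the same level on both matrices. The log2 ratio of 12 to 0.5 kPa had a median of 0.00044, and the 5th and 95th percentiles were -0.26 and 0.25. A ratio past 1.1-fold, the threshold used in the study, was reached upward by 1116 genes (14.6%) and downward by 1112 genes (14.5%), and 70.9% stayed within it. The study applied this threshold to genes with a value above 2 in all samples, a lower minimum than the one used here. Below, a gene is said to have risen or fallen where it passed 1.1-fold between these 2 libraries. Counts in the gene lists below stand beside these shares of 14.6% higher and 14.5% lower over all well-expressed genes. Past 1.5-fold there were 26 higher genes (0.34%) and 29 lower genes (0.379%), and past 2-fold 3 in each direction. The error from read counting alone, estimated from depth and transcript length, had a median of 0.0484 on the log2 scale. Of 2201 genes past 1.1-fold with a known length, 2016 (91.6%) lay more than 2 such errors from no change, but variation between cultures and library preparations is not part of this error.

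The size of the ratios depended on the expression level. With well-expressed genes ranked by their mean level and split into 4 equal groups, 37.7% of the lowest group were past 1.1-fold in either direction, against 20.8% of the highest and 29.1% of all. In this highest group, with a mean FPKM above 66.3, 6 genes fell past 1.5-fold and 0 rose past it. Of the 10 most expressed genes, S100a6 and Lgals1 fell and the others stayed within 1.1-fold. S100a6, which encodes a small calcium-binding protein, was at 6455 on the soft and 5268 on the stiff matrix, and Lgals1, the gene of galectin-1, at 2790 and 2316. Actb was at 2327 and 2331, Gapdh at 991 and 992, and Eef1a1, the elongation factor that brings tRNAs to the ribosome, at 4173 and 4321. Srf itself was at 34.4 and 35.6 in control NPCs, a log2 ratio of 0.05 with a counting error of 0.034, and the hairpin libraries had 16.2 and 17.4.

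**Figure D1:**
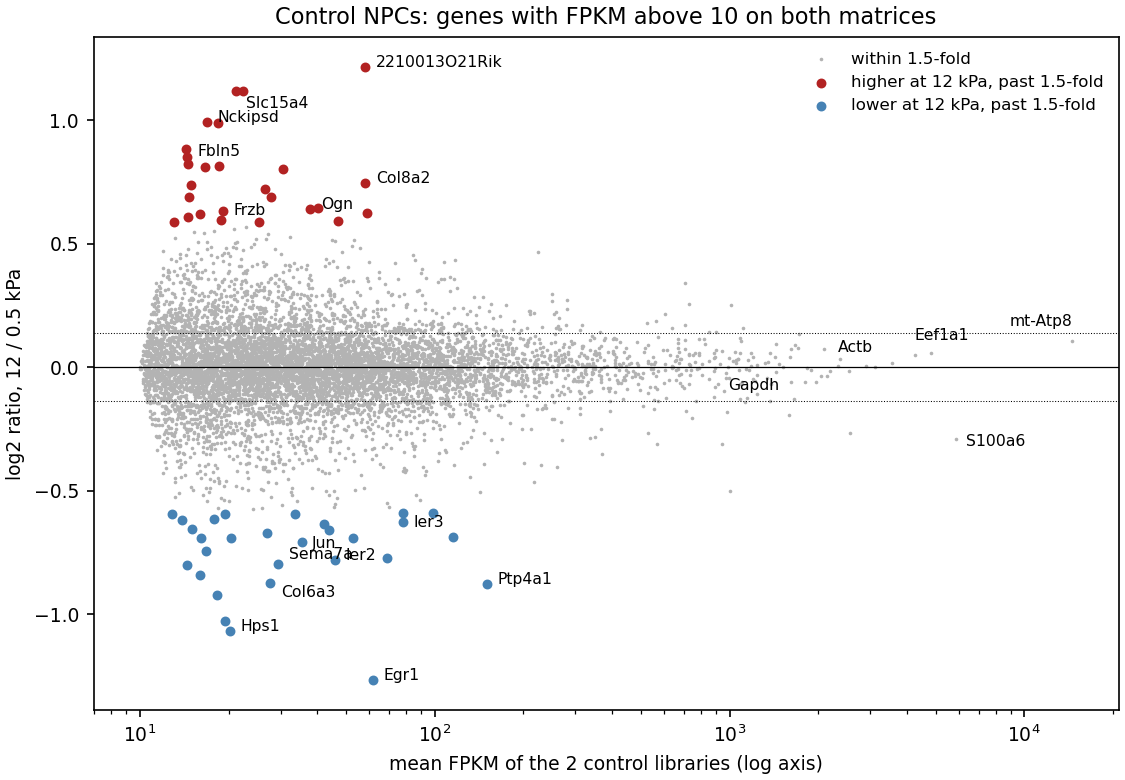
Log2 ratio of 12 to 0.5 kPa in control NPCs (y axis) against the mean FPKM of both control libraries (x axis, log scale) for the 7645 well-expressed genes, 1 point for each gene. Dotted lines mark 1.1-fold, and the coloured points are the 26 genes that rose and the 29 that fell past 1.5-fold; Egr1 is the lowest point, at -1.27.

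Among the well-expressed genes, which are above 10 FPKM on both matrices, the largest fall was in Egr1, an early gene that encodes a zinc-finger transcription factor induced by growth factors and by stretch. It was at 87.0 on the soft and 36.2 on the stiff matrix in control NPCs, whereas the knockdown libraries had 196 and 137. The level in control NPCs was thus 2.40-fold lower on the stiff matrix (log2 ratio -1.27, counting error 0.033), and 12 kPa gave the lowest of the 4 libraries. Ptp4a1 (chromosome 1 of mm10, 30940303 to 30949877), a membrane-bound phosphatase, was the most highly expressed gene among the 15 largest falls. It was at 194 on the soft and 106 on the stiff matrix in control NPCs, and at 198 and 192 in Srf-knockdown NPCs, so that the control library at 12 kPa stood apart from the other 3 (log2 ratio -0.88). Hps1, a subunit of a complex for lysosome-related organelles, showed the same arrangement, at 27.4 and 13.0 in control NPCs and at 30.6 and 31.8 after Srf knockdown. Eml1, a microtubule-binding protein, fell from 26.2 to 12.8, and Dusp2, a nuclear phosphatase that inactivates MAP kinases, from 24.0 to 12.7. For Eml1 the Srf-knockdown libraries, at 18.7 and 18.2, lay between the control values.

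Sema7a (chromosome 9, 57939596 to 57962865), a membrane-anchored semaphorin that binds integrins, was at 37.4 and 21.5 in control NPCs and at 4.91 and 4.03 in Srf-knockdown NPCs, a log2 ratio of -0.80 in control. Ier2, another early gene, was at 58.0 and 33.7 (-0.78), and Jun, a subunit of AP-1, at 43.9 and 26.9 (-0.71). Among the 15 largest falls were also Col6a3, Fahd2a, Arrdc1, Gm20390, Zfp950 and Samd4b, with log2 ratios from -0.87 to -0.69.

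Rises past 1.5-fold were in genes of lower expression. The uppermost of the well-expressed genes was 2210013O21Rik, at 35.1 on the soft and 81.4 on the stiff matrix in control NPCs and at 39.2 and 34.0 in Srf-knockdown NPCs. Slc15a4 (chromosome 5, 127594545 to 127633292, where it overlaps Glt1d1), a lysosomal transporter of histidine and peptides, was at 13.4 and 29.0 in control NPCs and at 27.9 and 16.4 in Srf-knockdown NPCs, so that its order by stiffness was reversed there. Tmem141 was at 14.2 and 30.7, Nckipsd, a binding partner of the actin regulator Nck, at 11.3 and 22.6, and Ccdc91 at 12.4 and 24.5. For Nckipsd the Srf-knockdown libraries, at 10.0 and 13.6, were both below the control library at 12 kPa. Cers4, a ceramide synthase, was at 13.5 and 23.7 (0.81). The counting error was 0.147 for Ccdc91 and 0.175 for Fggy, a carbohydrate kinase at 12.1 and 21.2, since few reads were estimated for them.

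Among the 15 largest rises were also 2 matrix genes, Fbln5 and Col8a2, which are described below, together with Flt3l, Tmem135, Mrm1, Atxn1l, Zfp771 and Inpp1 (log2 ratios from 0.69 to 0.88). The control library at 12 kPa lay outside the range of the other 3 libraries for 21 of the 26 genes that rose past 1.5-fold, and the control library at 0.5 kPa did for 14. For the 29 that fell, these counts were 16 and 20. The genes were chosen by the ratio of these 2 control libraries, so an outer place for either is partly built in. No such count was made over all well-expressed genes. In Srf-knockdown NPCs, 9 of the 26 also rose past 1.1-fold and 6 fell, and 9 of the 29 also fell and 7 rose. Of the genes with coordinates, 29.2% of the higher and 40.7% of the lower genes overlapped another gene, against 35.9% of all well-expressed genes.

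**Figure D2:**
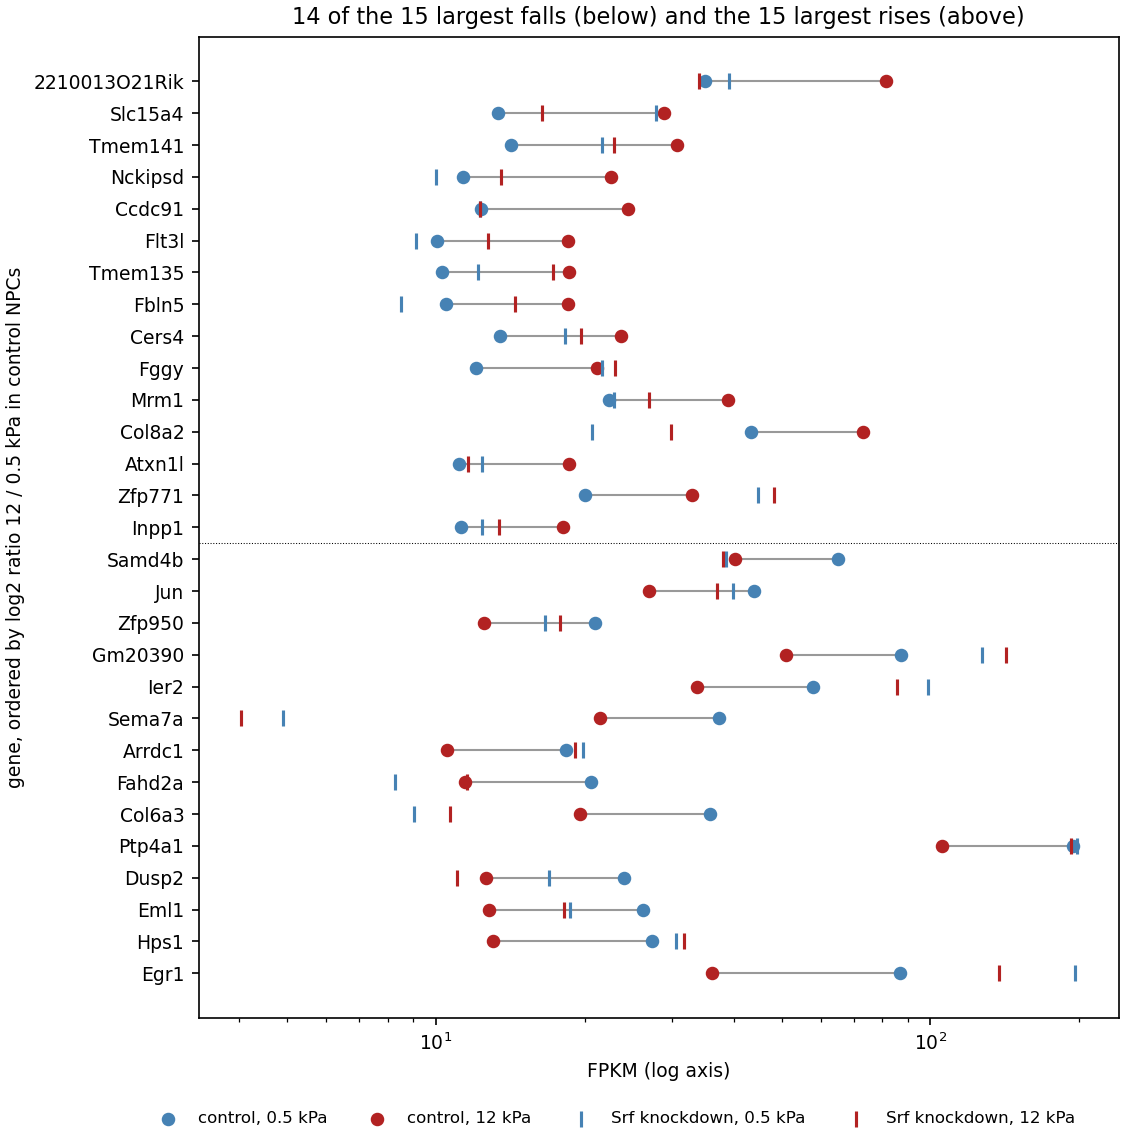
FPKM (x axis, log scale) of 14 of the 15 largest falls, below the dotted line, and the 15 largest rises, above it, with control NPCs as circles and Srf-knockdown NPCs as vertical ticks, blue for 0.5 kPa and red for 12 kPa. Grey lines join the 2 control libraries; the red circle of Ptp4a1, at 106, stands left of the other 3 libraries, which are between 192 and 198.

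The falls of Egr1, Ier2 and Jun stood beside falls of other early genes. Of 17 early genes that Srf binds with its TCF partners, 7 were well expressed, 5 fell and 0 rose, with a median log2 ratio of -0.36 against 0.00044 over all well-expressed genes. The median depended on the minimum FPKM, at -0.63 with a minimum of 20, -0.30 with a minimum of 5 and -0.25 over the 16 members with a value, where a pseudocount of 1 was added. The other falls were in Ier3 (95.1 and 61.5), which modulates cell survival, Zfp36 (24.0 and 18.7), which destabilises AU-rich mRNAs, and Dusp5 (15.6 and 13.1), a nuclear phosphatase of Erk. Mcl1 and Srf were within 1.1-fold, and over all well-expressed genes 14.5% fell and 14.6% rose. All 3 well-expressed AP-1 genes, of 9 listed, fell: Jun, Fosl2 (15.9 and 11.2) and Jund (29.9 and 23.9). Below the minimum of 10, early genes were chosen for naming by a ratio past 1.5-fold, so their large ratios follow from this choice. Among them, Fos was at 7.85 and 4.67 (-0.75) and Egr3 at 9.61 and 5.42 (-0.83), both lower on the stiff matrix. With a minimum of 2, the early gene list had a median of -0.34 over 14 members. The same early gene list had a median of -0.16 between 12 and 0.5 kPa after Srf knockdown.

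Genes that feed back on receptor tyrosine kinases also fell. Of 13 well-expressed feedback genes of the FGF, EGF and PDGF pathways, 6 fell and 0 rose, among them Spry4 (34.9 and 26.1) and Spry2 (57.4 and 47.5), which block Ras activation, Dusp6 (104 and 78.7), a cytoplasmic Erk phosphatase, and Etv4 (71.0 and 55.4), an Erk-induced Ets factor. Ier3 is counted in this group too, and of all well-expressed genes 14.5% fell and 14.6% rose. Of 7 ligands, 4 fell and 2 rose. Pdgfa was at 83.7 on the soft and 56.6 on the stiff matrix (-0.57), whereas Pdgfd was at 10.05 and 13.9 (0.47). The receptors moved less, with 0 of 7 lower, and Fgfr1, the most expressed, was at 172 in both libraries. Myc was at 42.3 and 33.7, a fall by 0.33 on the log2 scale, and the cells also carry an inducible c-Myc transgene, whose reads were not separated.

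Promoter sequence was set beside these lists, since Srf binds CArG boxes. RefSeq promoters of GRCm38.p6, from 250 bases before to 50 bases after each start, held a CArG box on either strand in 1.81% of 27025 genes. The share was 60% of the 5 well-expressed early genes with a promoter and 36% of 25 Mkl1-Srf targets. It was 1.72% of all well-expressed genes, 2.38% of the genes that fell and 1.59% of those that rose. Both lists were made of known Srf targets, so their shares say nothing about stiffness. Shown here are stretches of 100 bases, on the strand of each gene, from Zfp36, an early gene that fell, and from Myl9, the Mkl1-Srf target that rose. The CArG box is in capitals, and it begins 58 bases before the Zfp36 start and 161 bases before the Myl9 start. They lie at chr7:28379233-28379332 (minus strand) and chr2:156775257-156775356 (plus strand).
Zfp36: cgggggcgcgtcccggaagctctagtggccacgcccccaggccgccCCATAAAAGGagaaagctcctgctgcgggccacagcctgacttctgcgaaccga
Myl9: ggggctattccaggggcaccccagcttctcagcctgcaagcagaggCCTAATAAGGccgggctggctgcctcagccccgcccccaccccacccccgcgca
A match is a description of these letters and does not show a bound site.

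The actin genes that Mkl1 and Srf drive shifted little and mostly downward. Of 28 well-expressed Mkl1-Srf targets and factors, 11 fell and 1 rose, beside 14.5% and 14.6% of all well-expressed genes. The median log2 ratio was -0.09. The largest falls were in Cnn1 (95.04 and 76.1), Tagln (298 and 242), Pdlim7 (231 and 194) and Itga5 (77.9 and 66.2). Cnn1 and Tagln bind actin in smooth muscle, Pdlim7 links enzymes to actin filaments, and Itga5 is a fibronectin receptor subunit. Myl9, a regulatory light chain of myosin, was at 346 on the soft and 382 on the stiff matrix, just past 1.1-fold. Acta2 was at 321 and 322 and Actg1 at 2909 and 2917, and Mkl1 fell from 34.6 to 29.99.

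Adhesion and lamina genes included clear falls in single members. Of 28 well-expressed focal adhesion genes, 7 fell and 1 rose (median -0.08), beside 14.5% and 14.6% of all well-expressed genes. Tes, a zyxin-binding LIM protein, was at 91.4 and 68.4 (-0.42), Arhgap22, a Rac-inactivating protein, at 33.6 and 26.02 (-0.37), Vcl at 143 and 127, and Zyx, the most expressed, at 292 and 275. Among 8 integrin genes, the laminin receptor chains Itga6 (47.3 and 35.3) and Itga3 (51.4 and 41.6) fell with Itga5, while Itgav (80.5 and 90.9), Itga8 (34.8 and 39.1) and the collagen receptor chain Itga1 (10.2 and 12.1) rose. Both beta chains were within 1.1-fold, with Itgb1 at 250 and 251. Lmna (chromosome 3, 88481148 to 88509932), which encodes the A-type lamins that stiffen the nucleus, was at 295 on the soft and 223 on the stiff matrix, a log2 ratio of -0.41 with a counting error of 0.020. In Srf-knockdown NPCs Lmna was at 259 and 252. Lbr, which anchors B-type lamins, fell from 32.8 to 28.2, whereas Lmnb1 was at 67.9 and 68.1.

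Of single genes for intermediate filaments, Nes (chromosome 3, 87971093 to 87980451), the nestin gene of neural progenitors, was at 51.6 on the soft and 36.1 on the stiff matrix in control NPCs and at 16.4 and 15.5 in Srf-knockdown NPCs (log2 ratio in control -0.52). Krt8 was at 19.99 and 13.7 and Krt18, its keratin partner, at 20.2 and 14.3. Of the 14 well-expressed genes in a wider NPC list, 5 fell and 4 rose, and their median was -0.02. Over all well-expressed genes, 14.5% fell and 14.6% rose. Nr2f1, a transcription factor of the developing cortex, fell from 36.2 to 27.9, while Slc1a3, the glial glutamate transporter (27.7 and 36.7), Ccnd2, a cyclin of cycling progenitors (77.8 and 101), and Sox9 (10.9 and 13.5) rose. S100a4, a mesenchymal marker, was at 1177 and 830 (-0.50), and the 17 mesenchymal genes had a median of -0.02, with 4 lower and 2 higher.

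Yap targets had more rises than falls. Of 19 well-expressed members, 7 rose and 2 fell, with a median of 0.01, beside 14.6% and 14.5% of all well-expressed genes. Tgfb2 (10.2 and 12.6), the angiomotin Amotl2 (68.3 and 83.4), Asap1 (132 and 161) and Ctgf, a matricellular growth factor (15.5 and 18.5), were higher on the stiff matrix. Cyr61, the more abundant relative of Ctgf, was at 138 and 131, within 1.1-fold. Lats2, a kinase that inactivates Yap, fell from 19.1 to 14.1, and Yap1 itself was at 52.8 and 54.1. The sequence GGAATG of Tead factors, searched on both strands, was in the promoters of 61.5% of 13 of these genes. The share was 16.6% of all genes and 13.6% of well-expressed genes, with 14.4% of those that rose and 13.1% of those that fell. The list was made of known Yap targets, so its share says nothing about stiffness.

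**Figure D3:**
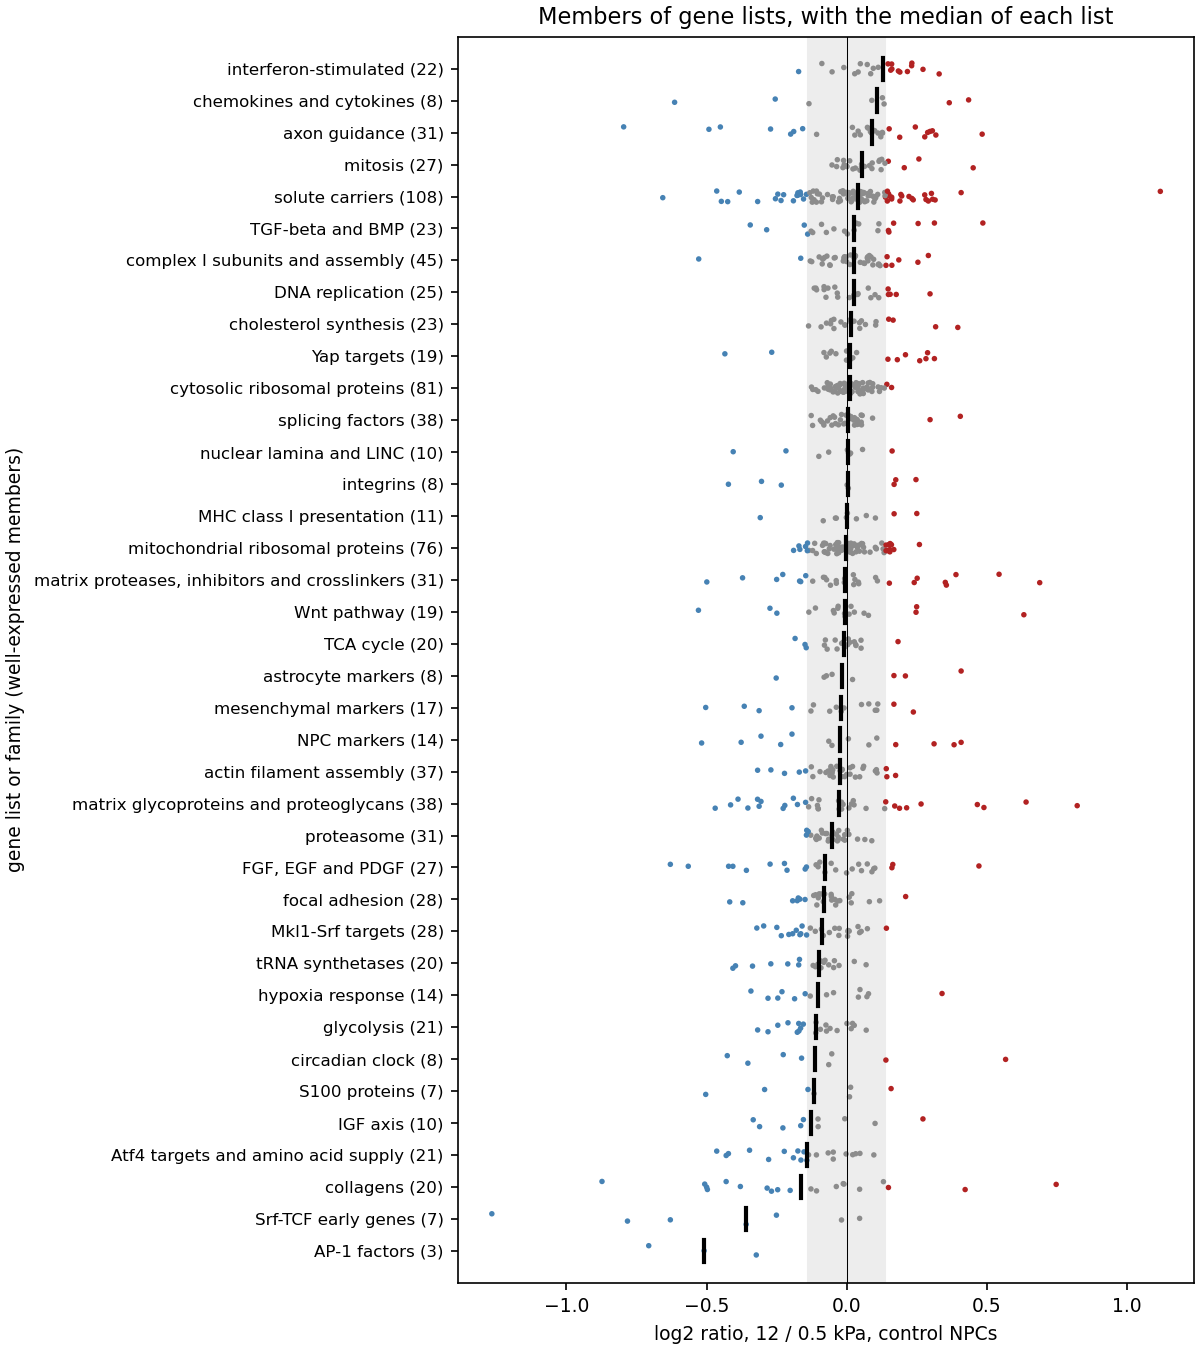
Log2 ratio of 12 to 0.5 kPa in control NPCs (x axis) for each well-expressed member of the gene lists and families, 1 point for each gene, with the number of well-expressed members in brackets and the median as a black bar. Red points rose and blue points fell past 1.1-fold, and the grey band marks the range within it; the medians run from -0.51 for AP-1 factors to 0.13 for interferon-stimulated genes.

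The collagen genes shifted mostly downward on the stiff matrix. Of 20 well-expressed members, 10 fell and 3 rose, beside 14.5% and 14.6% of all well-expressed genes, and the median log2 ratio was -0.16, or -0.11 with a minimum FPKM of 20 and -0.07 over all collagen genes with a pseudocount of 1. All 5 basement membrane chains were lower. Col4a1 was at 580 on the soft and 481 on the stiff matrix and Col4a2, its partner in the same trimer, at 146 and 120. Col18a1, whose end fragment is endostatin, was at 167 and 117 (-0.51), Col4a5 at 27.1 and 23.6, and Col4a6 at 13.8 and 11.7. In Srf-knockdown NPCs, Col18a1 was at 51.4 and 48.7.

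The 3 chains of collagen VI, a beaded microfibril around cells, fell together. Col6a1 was at 62.7 on the soft and 44.4 on the stiff matrix, Col6a2 at 50.1 and 35.45, and Col6a3 (chromosome 1, 90766860 to 90844001) at 35.8 and 19.6. For Col6a3 the log2 ratio was -0.87 with a counting error of 0.038 in control NPCs, while Srf-knockdown NPCs had 9.01 and 10.7. Col7a1, which forms anchoring fibrils, was at 60.3 and 46.4. Of 6 well-expressed fibrillar collagens of the interstitial matrix, 1 rose and 0 fell, with Col3a1, the most expressed, at 1730 and 1584, Col1a2 at 570 and 555, and Col1a1 at 96.0 and 95.4. Rises were in Col8a2 (chromosome 4, 126286794 to 126314330), a short-chain network collagen (43.5 and 72.9, 0.75), Col12a1, which coats fibrils (62.5 and 83.7, 0.42), and Col11a1 (78.1 and 86.6).

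Matrix glycoproteins and proteoglycans moved in both directions. Of 38 well-expressed genes, 12 fell and 9 rose, with a median of -0.03, beside 14.5% and 14.6% of all well-expressed genes. Laminin and perlecan genes of the basement membrane were among the falls, with Lama5 at 33.5 and 24.2 (-0.47) and Hspg2 at 93.4 and 74.9 (-0.32), but Lama4 (55.3 and 62.2) and Lamb2 (42.3 and 46.6) rose. Fn1 (chromosome 1, 71585473 to 71653280), which encodes fibronectin, was at 631 on the soft and 508 on the stiff matrix, a log2 ratio of -0.31 with a counting error of 0.0060 on an estimated 143930 and 96024 reads. Thbs2 (30.1 and 22.6), Fbln2 (32.2 and 24.6) and Gpc1 (59.2 and 46.4) also fell. Rises were led by Fbln5, an elastic fibre protein (10.5 and 18.5, 0.82), Ogn, a small leucine-rich proteoglycan (29.6 and 46.1, 0.64), Thbs1 (43.8 and 61.4) and Postn, or periostin (188 and 259). In Srf-knockdown NPCs, Fbln5 was at 8.52 and 14.4 and Thbs1 at 21.8 and 30.6.

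**Figure D4:**
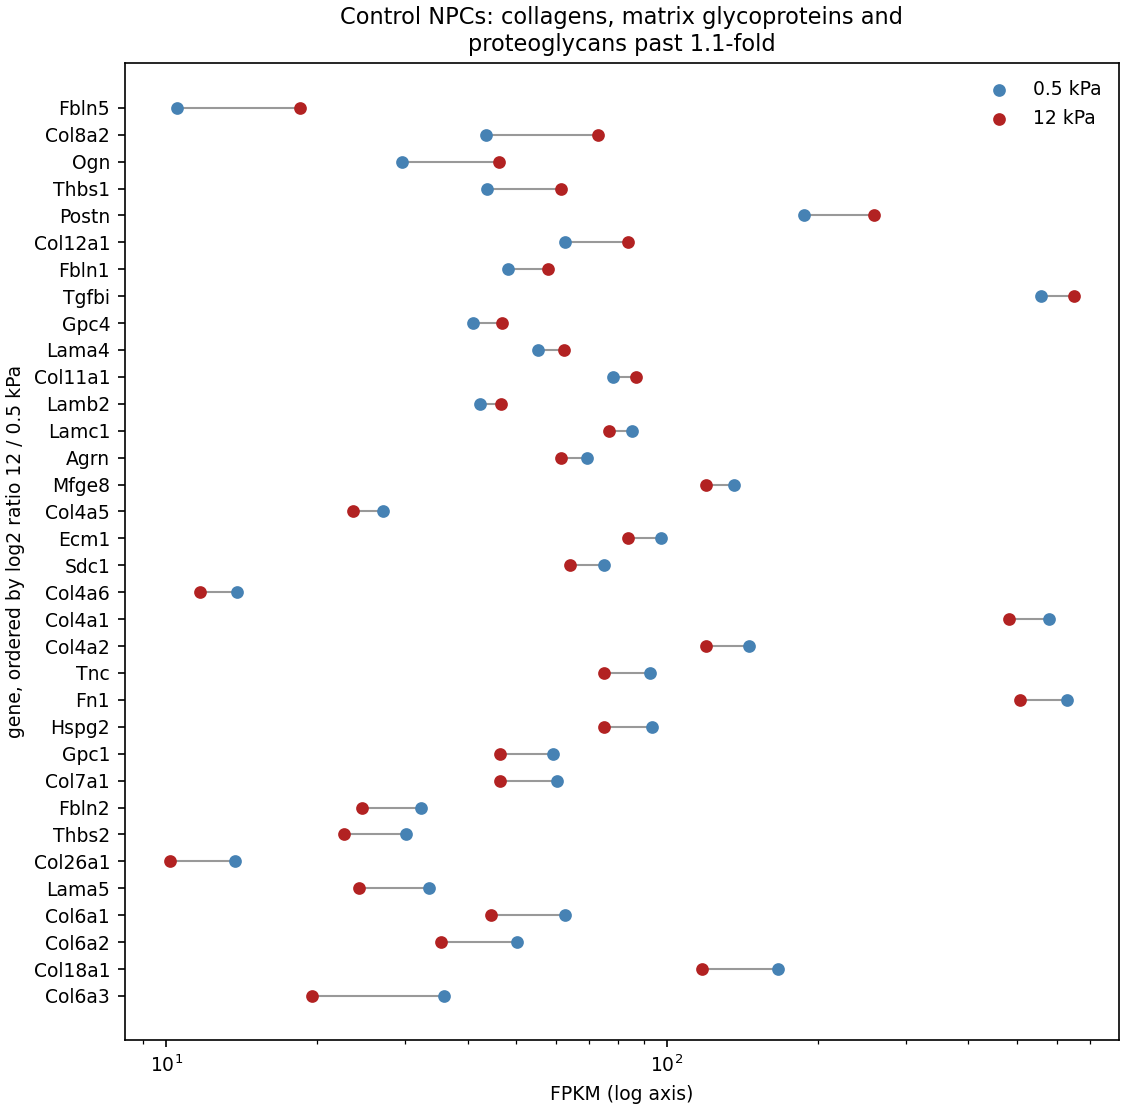
FPKM (x axis, log scale) of the collagens, matrix glycoproteins and proteoglycans past 1.1-fold in the control cells, blue for the 0.5 kPa and red for the 12 kPa matrix, ordered by their log2 ratio. The 3 collagen VI chains and Col18a1 lie at the bottom, and Fbln5 and Col8a2 at the top.

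Enzymes that process the matrix had 8 rises and 7 falls among 31 well-expressed genes, beside 14.6% and 14.5% of all well-expressed genes. Of the crosslinking and collagen-modifying enzymes, P4ha3, a collagen prolyl hydroxylase, was at 21.3 on the soft and 34.2 on the stiff matrix (0.69). Lox, which crosslinks collagen and elastin, was at 13.5 and 19.6 (0.54), and its relative Loxl3 at 12.8 and 16.4, but Loxl2 (78.5 and 70.9) and Tgm2 (69.3 and 53.6) fell. Among 12 proteases, Mmp23, Mmp11, Adamts1, Mmp2 and Adam10 rose by log2 ratios between 0.15 and 0.39. Mmp23 overlaps Mib2, which fell from 16.9 to 11.0, and how reads were shared between them was not tested. Adam17, the sheddase of EGF ligands, fell from 30.6 to 21.6. Plau (148 and 132) and Plat (53.4 and 44.9), both plasminogen activators, fell, as did the inhibitor Timp1 (130 and 111).

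Secreted signals and their antagonists differed between the matrices mostly in single genes. In the TGF-beta and BMP list, 6 of 23 rose and 4 fell, beside 14.6% and 14.5% of all well-expressed genes. Bmp4 was at 17.2 and 24.1 (0.49), and the latency protein Ltbp1 at 87.8 and 69.2 (-0.34). Id1 (81.45 and 90.4) and Id3 (248 and 278), both BMP targets, were just past 1.1-fold upward. In the Wnt list, 3 of 19 rose and 3 fell, or 15.8% each way, near the shares of all well-expressed genes. Frzb, a secreted Wnt antagonist, was at 14.99 and 23.2 in control NPCs and at 3.35 and 3.18 in Srf-knockdown NPCs, and Axin1, a scaffold of the destruction complex, at 55.1 and 38.2 in control NPCs. The median of the Wnt list was -0.01, and 0.00 with a minimum of 2. Of the genes of this pathway below the minimum of 10 in either library, those past 1.5-fold were chosen for naming by their ratio. Wnt7b was at 8.13 on the soft and 3.22 on the stiff matrix (-1.34), and Notum (12.2 and 6.59), Apcdd1 (16.0 and 8.63) and Lgr6 (5.72 and 3.04) were also lower, whereas Sfrp1 was at 2.40 and 3.88.

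Guidance molecules moved in both directions. Of 31 well-expressed axon guidance genes, 9 rose and 7 fell, with a median of 0.09, beside 14.6% and 14.5% of all well-expressed genes. Among slits, netrins, ephrins and their receptors, 6 of 15 rose and 2 fell, with the repellent Slit2 at 46.7 and 65.2 (0.48), Unc5c at 11.1 and 13.8, Ephb6 at 16.0 and 19.8 and Epha3 at 29.4 and 36.1, while the attractant Ntn1 fell from 19.5 to 13.9. Among semaphorins, plexins and neuropilins, 3 of 16 rose and 5 fell. The rises were in the secreted class 3 semaphorins Sema3a (41.0 and 50.1), Sema3c (33.5 and 40.7) and Sema3f (73.4 and 86.9). The falls were in Sema3b (19.6 and 17.0), also of class 3, the membrane-bound Sema7a, Sema5a (15.2 and 11.1) and Sema4b (18.5 and 16.2), and the co-receptor Nrp2 (14.3 and 11.8). Of the chemokine and cytokine genes, Cxcl12 (72.8 and 98.4) and Csf1 (98.3 and 127) rose and Il34, a second ligand of the Csf1 receptor, fell from 21.5 to 14.05 (-0.61). In the IGF axis 5 of 10 fell and 1 rose, with Igf2 at 94.9 and 75.3 and the binding protein Igfbp4 at 1045 and 843.

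Genes for amino acid supply were lower on the stiff matrix. Of 21 well-expressed Atf4 targets, 11 fell and 0 rose, with a median of -0.14. Of 20 cytosolic tRNA synthetases, 7 fell and 0 rose, with a median of -0.10 and 18 of 20 ratios below 0. Among all well-expressed genes, 14.5% fell and 14.6% rose, and 49.9% of the ratios were below 0. Asns, which makes asparagine, was at 107 on the soft and 80.1 on the stiff matrix, Slc7a11, the cystine transporter, at 15.2 and 11.0, Trib3, an Atf4-induced pseudokinase, at 17.98 and 13.3, and Psph, the last enzyme of serine synthesis, at 53.1 and 41.8. Slc3a2, the most expressed member, was at 234 and 233. Among the synthetases, Aars was at 76.1 and 57.4, Vars at 132 and 101, Cars at 64.5 and 51.1, and Iars at 101 and 83.6. In Srf-knockdown NPCs the medians of these lists were -0.09 and -0.08.

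The letters TGATGNAA, which Atf4 dimers recognise in amino acid response elements, were searched on both strands after the values had been seen. Among well-expressed genes with a promoter, they were in 5 of 18 Atf4 targets (27.8%) and 5 of 12 tRNA synthetases (41.7%). They were in 4.51% of all promoters. The share was 2.43% of all well-expressed genes, 2.49% of the genes that fell and 2.95% of those that rose. The Atf4 list was made of known targets. With the letters searched after the values were seen, the share of neither list says anything about stiffness. As examples from each list, 100 bases of the Asns and Aars promoters are printed on the strand of the gene. They lie at chr6:7693210-7693309 (minus strand) and chr8:111033684-111033783 (plus strand) of GRCm38.p6 in RefSeq. The Aars stretch lies within the span of its gene, chr8:111027778-111055569, and so precedes a start inside that span. Matching letters, which for Aars are on the opposite strand, are in capitals.
Asns: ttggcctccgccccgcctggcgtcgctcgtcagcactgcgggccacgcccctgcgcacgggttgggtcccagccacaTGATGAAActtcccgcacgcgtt
Aars: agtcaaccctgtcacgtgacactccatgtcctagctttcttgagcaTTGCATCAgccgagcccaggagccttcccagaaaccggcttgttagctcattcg
Most genes that fell hold no such letters in this window.

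Glycolysis and the hypoxia response showed falls of similar size, where 14.5% of all well-expressed genes fell and 14.6% rose. Of 21 well-expressed glycolytic genes, 9 fell and 0 rose (median -0.11), with the lactate exporter Slc16a3 at 19.2 and 15.4, the glucose transporter Slc2a1 at 40.1 and 33.8, Gpi1 at 267 and 231 and Pkm at 588 and 522, while Gapdh did not move. Of 14 hypoxia genes, 6 fell and 1 rose (median -0.10, or -0.05 with a minimum FPKM of 2). Ddit4, an inhibitor of mTORC1, fell from 49.2 to 38.8, and Egln3, an oxygen sensor, rose from 25.3 to 32.0. Pdk1 and Slc2a1 are in both lists. The TCA cycle genes were closer to 0, with 3 of 20 lower and 1 higher.

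Interferon-stimulated genes had the highest median of the lists plotted, 0.13 (0.08 with a minimum FPKM of 20). Of 22 well-expressed genes, 11 were higher and 1 lower, beside 14.6% and 14.5% of all well-expressed genes. Stat2 (13.4 and 16.9), a factor that carries the interferon signal, Gbp3 (13.3 and 16.1) and Ifi44 (16.5 and 19.4) were among the rises, and Ifitm3, the most expressed, was at 346 and 357. Of 11 genes for MHC class I presentation, Psme2, an activator of the proteasome, was at 922 and 1096, and Tap2 fell from 17.4 to 14.1, with a counting error of 0.239.

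Cell division and sterol genes had medians near 0 and shares of rises near or little above the 14.6% of all well-expressed genes, and none of their members fell past 1.1-fold. Of 27 well-expressed mitotic genes, 4 rose and 0 fell (median 0.05), among them Cenpe, a kinetochore motor (17.1 and 23.4, 0.45), and Mad2l1, a checkpoint protein (48.9 and 58.5). Of 25 DNA replication genes, 5 rose and 0 fell (median 0.03), led by Ccne2 (20.7 and 25.4), while Pcna was at 120 and 118. Of 23 cholesterol synthesis genes, 4 rose and 0 fell (median 0.02), with Dhcr7 at 78.4 and 103 (0.40) and Sc5d at 39.0 and 48.6, both of the last steps to cholesterol, and Fdps, the most expressed, at 239 and 241.

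Of the clock genes, 8 of 24 were well expressed, 4 fell and 2 rose, beside 14.5% and 14.6% of all well-expressed genes. Arntl, the activator also known as Bmal1, fell from 20.2 to 15.1, Bhlhe40 from 31.6 to 24.7, and Tef, an output factor, rose from 18.5 to 27.4. Cry1, a repressor below the minimum, was chosen for naming by its ratio past 1.5-fold. It was at 8.21 on the soft and 21.4 on the stiff matrix in control NPCs and at 8.50 and 3.70 in Srf-knockdown NPCs. The 12 kPa libraries were thus the highest and the lowest of the 4. The time of day at which RNA was taken was not given in the sources used here.

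In the larger families, the 81 well-expressed cytosolic ribosomal protein genes had a median log2 ratio of 0.01, with ratios from -0.13 to 0.16, 2 higher and 0 lower. Over all well-expressed genes, 14.6% were higher and 14.5% lower. The 76 mitochondrial ribosomal protein genes had 10 higher and 6 lower, the 45 complex I genes 6 higher and 2 lower, the 31 proteasome genes 0 higher and 3 lower, and the 38 splicing factors 2 higher, Clk1 (43.9 and 58.1) and Luc7l3 (70.5 and 86.6), and 0 lower. The 37 actin filament assembly genes had 3 higher and 5 lower, with Limk2 at 33.2 and 26.6 and the small GTPase Rhob at 87.1 and 72.2. Of 108 solute carriers, 22 rose and 18 fell, a larger share past 1.1-fold than the 29.1% of all well-expressed genes. Their median FPKM on the soft matrix was 26.5, however, against 33.3 over all well-expressed genes. Shares past 1.1-fold were larger at lower expression, with 37.7% in the lowest expression group and 31.6% in the next. Whether solute carriers differ from genes of like level was not tested. Among the solute carriers, Slc15a4 had the highest ratio and Slc10a7 (18.4 and 11.7) the lowest.

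GC content went along with the direction of change. In the fifth of genes with the lowest GC content, 16.7% rose and 9.38% fell, and in the fifth with the highest, 12.9% rose and 21.7% fell. The Spearman rho across 7568 genes, which are not independent replicates, was -0.14. Centred within 50 bins of GC content, the medians were -0.36 for early genes, -0.17 for collagens, -0.14 for Atf4 targets, -0.11 for tRNA synthetases and 0.13 for interferon-stimulated genes, against deposited medians of -0.36, -0.16, -0.14, -0.10 and 0.13. The focal adhesion median moved from -0.08 to -0.05. Transcript length gave a rho of -0.03, and the medians of single chromosomes lay between -0.02 and 0.01.

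The minimum of 10 left out genes near it with like ratios. The nearest inside were Irgm2 (10.0 and 12.7) and Arhgef11 (10.1 and 10.0), and the nearest outside were Hmbox1 (10.0 and 12.8) and Map3k4 (10.5 and 10.0). On the soft matrix alone 126 genes exceeded 10, and on the stiff matrix alone 155 did.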

How the data were processed

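The deposited values are FPKM for each gene, which the authors calculated with Cufflinks 2.2.1 after trimming with cutadapt 1.9.1 and mapping to mm10 with TopHat2 2.1.0 and Bowtie2 2.2.8, per the submitters' processing notes. Cufflinks shares reads among overlapping transcripts by estimation, and whether the strand of the library kit was used is not given in the sources used here. Values were used as deposited. Log2 ratios were computed without a pseudocount after the 63 symbols listed more than once were left out, and no test was made. Depth was estimated from whole-read steps between libraries in genes with an FPKM under 0.1, and the Poisson error of a ratio from this depth and the transcript lengths of GENCODE version M1 (99.0% of well-expressed genes matched), with 200 nucleotides taken off. Such errors are approximate. The procedure was tested on simulated data. Coordinates and promoters are those of RefSeq on GRCm38.p6, the assembly of mm10.

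Members and lists were chosen with earlier results of these data known. The genes named were the 15 largest rises and falls, up to 4 members past 1.1-fold and the most expressed member of each list, the 10 most expressed genes, Srf, Mkl1 and known targets, and clock, Wnt and early genes above an FPKM of 2 past 1.5-fold. Further list members and marker genes were named after their values were seen. Some genes that this rule selects are not reported here.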

Additional observations from a re-analysis of the deposited data

Results flagged for a closer look

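These results passed 1.1-fold with stiffness in control NPCs and passed it the opposite way after Srf knockdown. Of 177 genes named that passed 1.1-fold in control NPCs, 32 did so, 58 moved the same way in Srf-knockdown NPCs and 87 stayed within 1.1-fold there. The named genes were chosen partly by their ratios, and these shares were not computed over all well-expressed genes past 1.1-fold. Of all 7645 well-expressed genes, 5631 stayed within 1.1-fold in Srf-knockdown NPCs. Each population was 1 library at each stiffness, and none of these differences was tested. Log2 ratios of 12 to 0.5 kPa are given for control and then for Srf-knockdown NPCs.

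Of the 38 lists described, the collagens did so, with medians of -0.16 and 0.15. The control median was within 1.1-fold at other minimums, at -0.13 with a minimum of 2 and -0.11 with 20. The basement membrane chains, which all fell in control NPCs, had medians of -0.27 and -0.02. Among the collagen genes that passed 1.1-fold both ways, the values were -0.87 and 0.25 for Col6a3 and -0.50 and 0.22 for Col6a2. They were -0.38 and 0.24 for Col7a1, and -0.28 and 0.24 for Col4a2. Of other matrix genes, Fbln2 had -0.39 and 0.54 and Gpc1 had -0.35 and 0.18.

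Contractile genes and regulators of the actin and Yap pathways were Tagln (-0.30 and 0.94), Cnn1 (-0.32 and 0.73), Mkl1 (-0.21 and 0.20), Lats2 (-0.43 and 0.41), Jund (-0.32 and 0.20) and Itga8 (0.17 and -0.21). Cnn1 was below an FPKM of 2 in Srf-knockdown NPCs. Secreted factors, receptors and Wnt genes were Igf2 (-0.33 and 0.68), Igfbp4 (-0.31 and 0.15), Sema3a (0.29 and -0.40), Sema3b (-0.20 and 0.37), Ephb6 (0.31 and -0.26), Lgr6 (-0.91 and 0.48) and Notum (-0.89 and 0.40).

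Cry1 had the widest gap, 1.38 and -1.20. The cell division genes were Ccnd2 (0.38 and -0.36), Cenpe (0.45 and -0.23) and Mad2l1 (0.26 and -0.29). Transporters and metabolic genes were Slc15a4 (1.12 and -0.77), Slc10a7 (-0.66 and 0.31), Slc16a3 (-0.32 and 0.47), Egln3 (0.34 and -0.15) and Vars (-0.40 and 0.16). The remaining values were 1.21 and -0.21 for 2210013O21Rik, -0.84 and 0.48 for Fahd2a, -0.77 and 0.16 for Gm20390, and -0.31 and 0.19 for Tap2.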

How the results depend on the processing

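The counts past a threshold depended on the minimum FPKM. Past 1.1-fold, 1965 genes were higher and 1828 lower with a minimum of 2 in both libraries, 654 and 702 with a minimum of 20, and 2716 and 2471 without a minimum and with a pseudocount of 1. Past 1.5-fold, 103 were higher and 104 lower with a minimum of 2, 45 and 49 with 5, 10 and 15 with 20, and 136 and 116 without a minimum. Since the number of genes tested changes with the minimum, so do these counts by construction. With a pseudocount of 1, centring on the median, scaling to the 75th percentile or centring within GC bins, all counts stayed within 1.5 times the values as deposited. Scaling to the 75th percentile gave 1284 higher and 949 lower genes past 1.1-fold.

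Of 304 list medians under the alternatives, 260 moved by less than their tolerance and 44 by more. Some medians took the other sign. With a minimum of 2, the median of the NPC list was 0.04 against -0.02. That of the chemokine and cytokine list was -0.05 against 0.11, and that of the nuclear lamina and LINC list -0.06 against 0.00. The lower minimum brought in further members, with 22 against 14 in the NPC list, 14 against 8 in the chemokine and cytokine list and 13 against 10 in the lamina list. Of 1324 ratios of single genes under the alternatives, 27 moved beyond their counting error.

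No paired analysis was possible because the series holds 1 library per condition, and leaving out a library would leave no comparison. Reads limit the ratios of genes near the minimum most, where the median counting error was 0.0682 on the log2 scale in the lowest of the 4 expression groups against 0.0287 in the highest.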
